A study of Mus musculus with 6 samples.

Results

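Lysosomal hydrolases, their membrane partners and the proton pump that acidifies the lysosome were followed in lung cell preparations labelled alveolar type II, the surfactant-making epithelial cells of the lung. The members were 31 named lysosomal genes and every gene whose symbol starts with Atp6v except Atp6v0d2, which gave 19 pump genes and 50 genes in all, of 18193 genes named alone by a probe set. Each gene was read from its brightest probe set, and 48 of the 50 passed a filter on dim signals. Insig1-deleted mice (Insig1 ∆/∆ /Insig2 -/-) carried both SpC-rTTA and Otet-CRE with Insig1 flox/flox and Insig2-/-, and control mice (Insig1 flox/flox /Insig2 -/-) lacked one of these transgenes. By these labels mice of both groups lacked Insig2. Both groups were 2 months old, and their labels give doxycycline between E6.5 and E12.5. Each genotype was represented by 3 independent pools of RNA, 1 per array. A promoter of SFTPC, the surfactant protein C gene of type II cells, drove the transactivator, and no group had the complete Cre system with Insig1 intact, so an effect of that system and of Insig1 loss cannot be told apart.

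The lysosome breaks down lipids, glycans and proteins in an acid lumen. Its soluble hydrolases work at low pH, which the V-ATPase maintains: the V1 sector hydrolyses ATP in the cytosol and the V0 sector carries protons across the membrane. TFEB, a basic helix-loop-helix transcription factor, binds E-box elements near the promoters of many of these genes. In type II cells the lamellar body, which stores surfactant, is a lysosome-related organelle, and in alveolar macrophages lysosomes degrade surfactant taken up from the airspace. Loss of INSIG proteins releases SREBP transcription factors, which drive sterol and fatty acid synthesis.

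In pools of Insig1-deleted mice, transcripts of several lysosomal lipid hydrolases and cathepsins read above those of control pools, with Lipa at 1.63-fold and Psap and Ctsd at 1.48-fold, while most pump subunits and lysosomal membrane proteins read close to control. Only Psap, which encodes the precursor of the saposins, rose past the test (limma, adjusted p under 0.05 over 12952 genes), 1 of the 48 members tested against 0.625% of all genes higher by the same rule (0.649% in either direction). No member fell, against 0.0232% of all genes. At an unadjusted p under 0.05, 16 of the 48 were higher (33.3%, against 6.05% of all genes) and 0 were lower (6.02% of all genes). All 3 deleted pools lay above all 3 control pools for 18 of the 48 (37.5%, against 9.2% of all genes), and below them for 1 (7.9% of all genes). The median log2 fold change was 0.16 over the 48, against -0.005 over all genes tested.

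By list, the enzymes had a higher median than the pump, and the difference between these lists was not tested. Among 25 hydrolases and activators all 25 had log2 fold changes above 0 (49.1% of all genes did). Under at least 1 alternative, though, Smpd1, Gaa, Galc and Ppt1 turned below 0. At an unadjusted p under 0.05, 13 were higher (52%, against 6.05% of all genes), and the median was 0.36. Among 17 pump genes tested 12 lay above 0 and 5 below, 1 was higher at that level (5.88%), and the median was 0.10. The 2 pump genes below the filter were Atp6v0a4, with signals between 34.5 and 116.5 in deleted pools and between 46.1 and 86.2 in control pools, and Atp6v1b1, with signals between 54.1 and 301.8 in deleted pools and between 79.6 and 407.7 in control pools. Both encode subunits known from kidney intercalated cells.

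**Figure D1:**
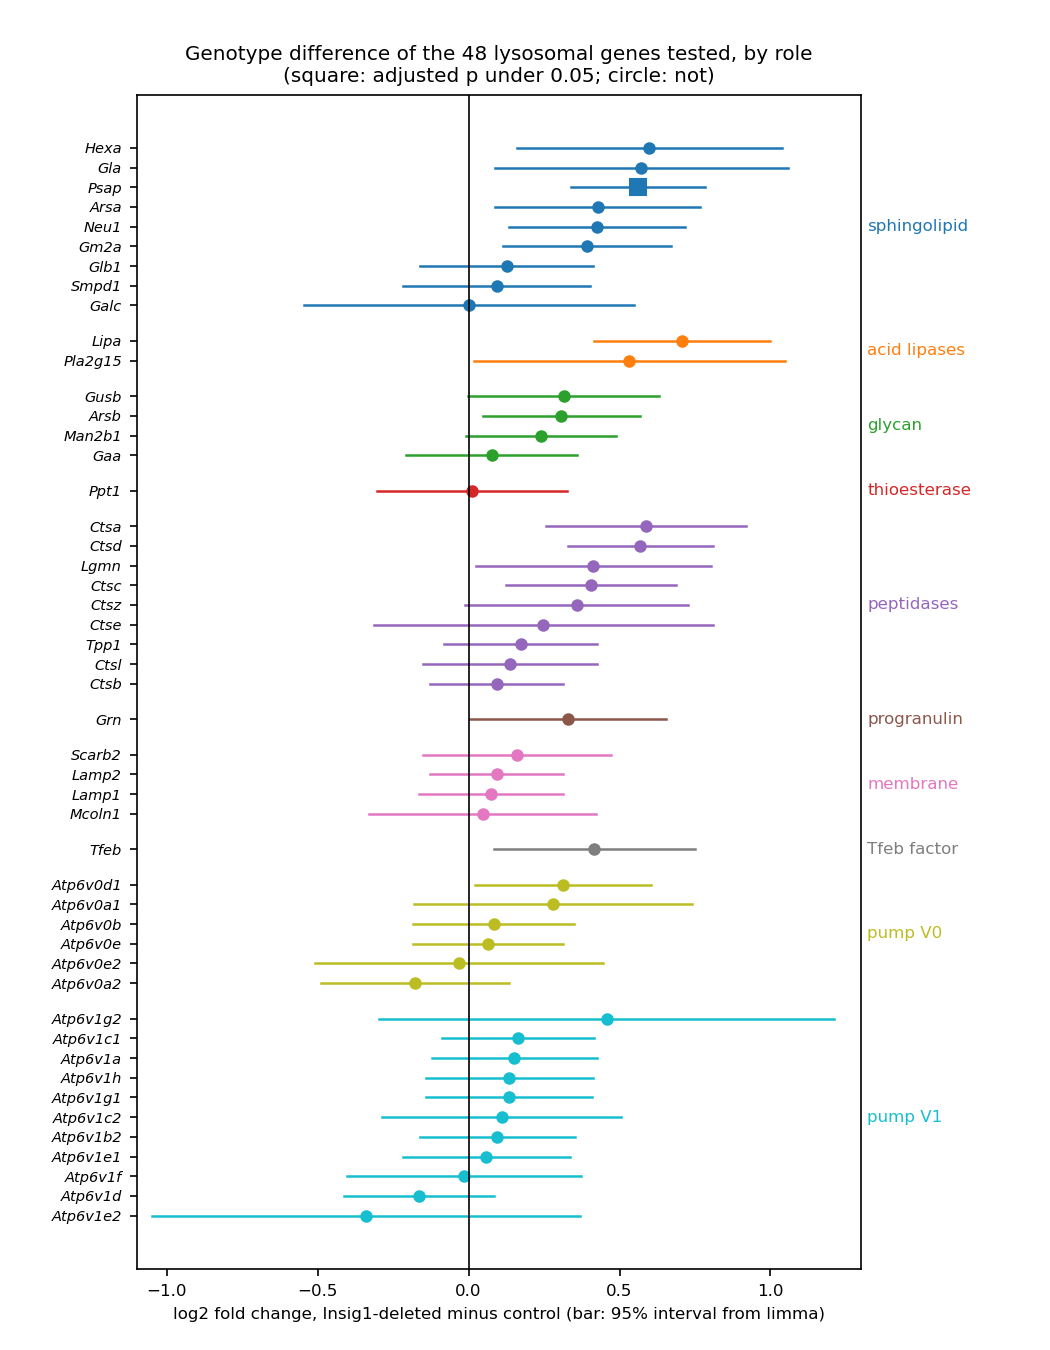
Log2 fold change (Insig1-deleted minus control) of the 48 lysosomal genes tested, in rows grouped by role, with bars for the 95% interval from limma. Psap alone is drawn as a square because its adjusted p was under 0.05, and every enzyme lies at or right of 0 while pump genes fall on both sides.

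Macrophage markers read higher in the same pools. Of 29 markers 23 were tested, 9 rose (0.625% of all genes did) and none fell, and their median log2 fold change was 0.90. The lysosome-rich cell marker Gpnmb averaged a signal of 3132 ± 23.2 in pools of deleted mice and 877 ± 213 in control pools, and the lysosomal membrane glycoprotein gene Cd68 3226 ± 42.5 and 1615 ± 80.7 (SD, n = 3 each). The alveolar macrophage receptor gene Marco had 3654 ± 391 in deleted pools and 812 ± 371 in control pools, and the pore-forming protein gene Mpeg1 12032 ± 177 and 4788 ± 1422 (SD, n = 3 each). Summed over the 23 markers the signal ran from 353250 to 396260 in deleted pools and from 279210 to 369800 in control pools. Lyz1 and Lyz2, at log2 -0.053 and -0.094, were the only 2 of the 23 below 0. They were left out after the values were seen, because type II cells express lysozyme too. The sum over the remaining 21 markers ran from 96819 to 117940 in deleted pools and from 43538 to 57844 in control pools. No marker was at 0 in any pool. The part of macrophage RNA in the lysosomal values was not tested, and in these bulk isolates more cells of a type and more RNA per cell cannot be told apart. Type II cell markers were measured beside them, with none of 16 past the threshold by limma, 2 higher at an unadjusted p under 0.05 and a median of 0.10.

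Saposins are small activators that present sphingolipids to their hydrolases, and Psap encodes the common precursor of all of them. Its signals were 19376, 19247 and 19493 in deleted pools, against 13157, 12389.6 and 13865 in control pools. The groups did not overlap, and the SD was 123 among deleted pools and 738 among control pools. Psap was 1.48-fold higher (log2 0.56 ± 0.098 SE, 95% interval 0.34 to 0.78, limma adjusted p = 0.043). A dimmer Psap probe set gave a log2 fold change of 0.54. The call did not hold without deleted replicate 1 (adjusted p = 0.18), 2 (0.26) or 3 (0.24) or without control replicate 1 (0.15), nor with quantile normalization (0.051), although the log2 fold change stayed between 0.52 and 0.64 under all 15 alternatives.

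The other ganglioside and sphingolipid genes divided into 5 with an unadjusted p under 0.05 (6.05% of all genes were higher at that level) and 3 near control. Neu1, the lysosomal sialidase, had signals of 2222, 2250.4 and 2358 in deleted pools, against 1542, 1807 and 1749.6 in control pools. The groups did not overlap, and the log2 fold change of 0.42 ± 0.13 (SE) had a limma adjusted p of 0.24. Gm2a encodes the activator that lifts ganglioside GM2 out of the membrane for hexosaminidase. It had 5805, 6301 and 6618 in deleted pools, against 4646, 5384 and 4286 in control pools, with no overlap, a log2 fold change of 0.39 ± 0.12 (SE) and a limma adjusted p of 0.26.

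Hexa, the alpha subunit of that hexosaminidase, had signals of 15825, 15467 and 14462 in deleted pools, against 11750.2, 12277 and 7058 in control pools. Control replicate 3 lay far below the other controls, and the log2 fold change was 0.60 with all pools and 0.34 without that pool. Arsa, which removes sulfate from sulfatide, had a log2 fold change of 0.43, with 2741, 2615 and 2488 in deleted pools and 1858, 1686 and 2339.9 in control pools, and no overlap. Gla, the alpha-galactosidase that cleaves globotriaosylceramide, stood at 0.57 with overlapping groups, since deleted replicate 1 (945.8) lay below control replicate 3 (966.2).

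Glb1, the beta-galactosidase, Smpd1, the acid sphingomyelinase, and Galc, which cleaves galactosylceramide, lay near control. Their log2 fold changes were 0.13 (95% interval -0.16 to 0.41), 0.094 (-0.22 to 0.40) and 0.002 (-0.54 to 0.55). The Glb1 groups did not overlap, while those of Smpd1 and Galc did.

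**Figure D2:**
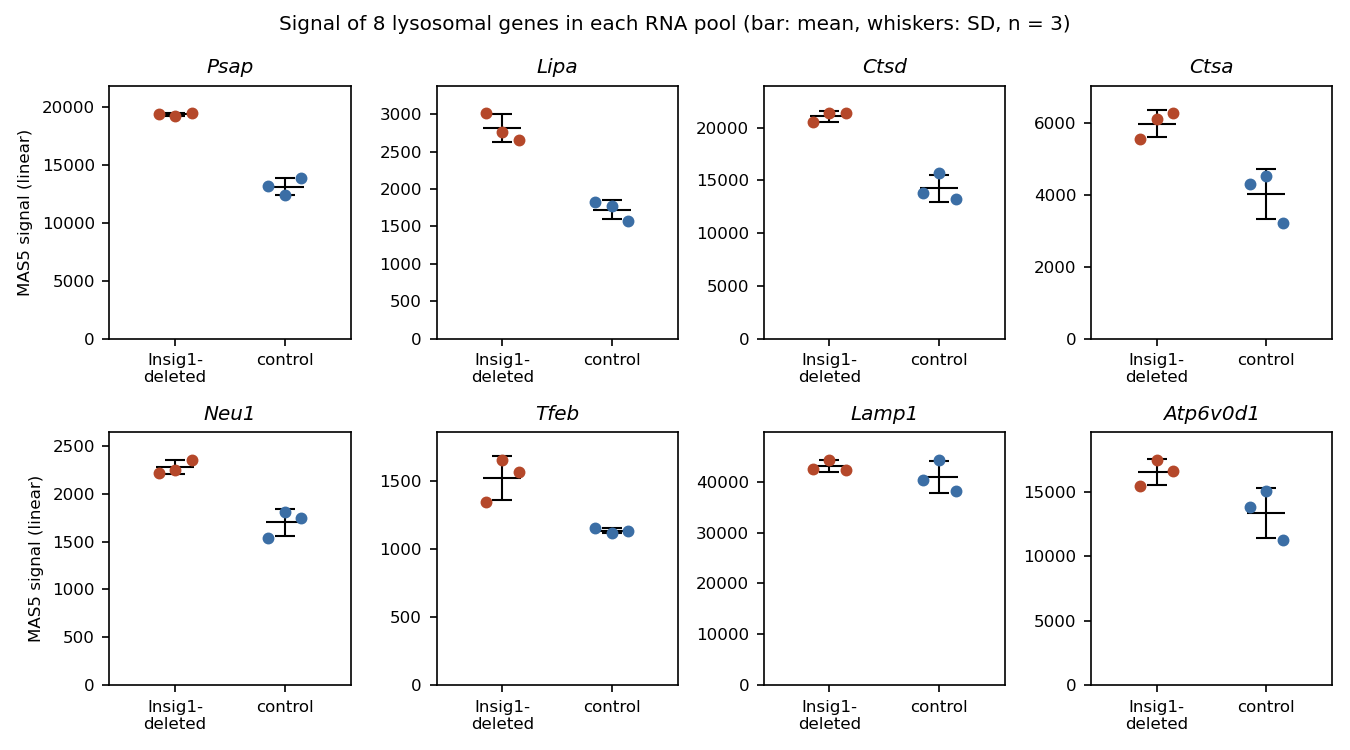
MAS5 signal (linear vertical axes from 0) of 8 lysosomal genes in each RNA pool, Insig1-deleted pools in red at left and control pools in blue at right, with the mean as a bar and the SD as whiskers (n = 3). Psap, Lipa, Ctsd, Ctsa, Neu1, Tfeb and Atp6v0d1 show no overlap between genotypes, while the Lamp1 points do.

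Acid lipid degradation showed the largest fold change among the members. Lipa, the lysosomal acid lipase, hydrolyses cholesteryl esters and triglycerides delivered to the lysosome. Its signals were 3015, 2763 and 2656 in deleted pools, against 1823, 1769 and 1578 in control pools. The lowest deleted pool stood well above the highest control. The difference was 1.63-fold (log2 0.71 ± 0.13 SE, 95% interval 0.42 to 1.0), with a limma adjusted p of 0.053 that missed the threshold. It passed without control replicate 2 (0.027), with array weights (0.026), with the filter at the 60th percentile (0.045) and with the mean over probe sets (0.048). Its 2 dimmer probe sets gave 0.72 and 1.42.

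Pla2g15 encodes the lysosomal phospholipase A2, which in mice degrades phospholipid in alveolar macrophages. Its signals were 1423, 1814 and 1879 in deleted pools, against 1038, 1649.6 and 934 in control pools. Control replicate 2 lay above deleted replicate 1, so the groups overlapped, and the log2 fold change of 0.53 ± 0.23 (SE) had a limma adjusted p of 0.40.

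Of 9 lysosomal peptidases, 4 were higher at an unadjusted p under 0.05 (44.4%, against 6.05% of all genes) and the median log2 fold change was 0.36. Ctsd, the aspartic protease cathepsin D, had signals of 20518, 21400.2 and 21365 in deleted pools, against 13855, 15704 and 13214 in control pools. The groups stood well apart, at 1.48-fold (log2 0.57 ± 0.11 SE), and the limma adjusted p of 0.061 missed the threshold. It passed without control replicate 2 (0.015), with array weights (0.013), with a shift to a common median (0.034) and with the pool number as a replicate block (0.048).

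Ctsa is a serine carboxypeptidase that also protects the sialidase and the beta-galactosidase in a complex. It had 5539, 6106 and 6268 in deleted pools, against 4288, 4524 and 3214 in control pools. The groups did not overlap (log2 0.59 ± 0.15 SE), and the limma adjusted p was 0.17. Ctsc, the dipeptidyl peptidase that activates granule serine proteases, had 59960.5, 69526 and 73487 in deleted pools, against 53738, 53577 and 45725 in control pools. It too showed no overlap, with a log2 fold change of 0.41 ± 0.12 (SE).

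Lgmn, the asparaginyl endopeptidase, stood at 0.41, and deleted replicate 1 (4930.3) was barely above control replicate 1 (4873). Without control replicate 3 it stood at 0.22. Ctsz, a carboxypeptidase, stood at 0.36 with overlapping groups by its brightest probe set, and at 0.53 and 0.55 by dimmer ones. Without control replicate 3 or without deleted replicate 2 the brightest gave 0.21 and 0.22. Ctsb, the abundant cysteine protease cathepsin B, had signals of 40153, 40304 and 39942 in deleted pools, against 36298, 38684 and 37927 in control pools. Its groups did not overlap either, but the difference was small, at log2 0.093 (95% interval -0.13 to 0.31). Tpp1, the tripeptidyl peptidase, stood at 0.17, Ctsl at 0.14 and Ctse, an aspartic protease of endosomes, at 0.25 with control replicate 3 (5235) above every deleted pool. Ctse stood at 0.57 without that pool, and at 0.073, 0.10 and 0.13 without control replicate 1, control replicate 2 and deleted replicate 1.

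Glycan hydrolases had a median log2 fold change of 0.27 over 4 genes, 1 of them higher at an unadjusted p under 0.05 (6.05% of all genes were). Arsb, which removes sulfate from dermatan sulfate, had 3326, 3589.6 and 3642 in deleted pools, against 2807, 3012 and 2712 in control pools. It showed no overlap, with a log2 fold change of 0.31 and a limma adjusted p of 0.34. Gusb, the beta-glucuronidase, had 3911, 3412 and 3207 in deleted pools, against 3047, 3002 and 2429 in control pools, and stood at log2 0.32, or 0.21 without control replicate 3.

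Man2b1, the alpha-mannosidase, had 6777.5, 6291 and 6070.2 in deleted pools, against 5033, 5408 and 5775 in control pools, and stood at log2 0.24. Gusb and Man2b1 showed no overlap, while Gaa, the glycogen-degrading alpha-glucosidase, did, at 0.076. Ppt1, a thioesterase that removes palmitate from proteins, had 3755, 3597 and 3703 in deleted pools, against 3742, 4253 and 3067.5 in control pools. The deleted pools lay inside the control range, and the log2 fold change was 0.012 (95% interval -0.30 to 0.33).

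Grn encodes progranulin, a secreted protein cleaved to granulins in the lysosome. Its signals were 26240.5, 25905 and 23455 in deleted pools, against 19141, 24695 and 17022 in control pools. Control replicate 2 exceeded deleted replicate 3, and the log2 fold change of 0.33 ± 0.14 (SE) had a limma adjusted p of 0.41. Without control replicate 3 it was 0.21.

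Tfeb itself had signals of 1347, 1660 and 1566 in deleted pools, against 1159, 1119.7 and 1134 in control pools. Every deleted pool was above every control pool, and the log2 fold change was 0.42 ± 0.15 (SE, limma adjusted p = 0.32). TFEB activity is set largely by its phosphorylation and its place in the cell, which arrays do not measure. Among its relatives and their regulators at the lysosome (the MiT factors, Ragulator and Rag GTPases), none of 16 tested genes passed by limma, and the median was 0.034. At an unadjusted p under 0.05, 1 was higher (6.25%, against 6.05% of all genes) and 0 were lower (6.02% of all genes were). The gene at that level was Fnip2, a partner of folliculin (log2 0.34), and Lamtor1, the Ragulator anchor, stood at 0.31. Named outside the rule, the MiT factors Tfe3, Mitf and Tfec stood at 0.032, 0.15 and 0.55, and the Tfec groups overlapped (unadjusted p = 0.11, limma).

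None of 4 lysosomal membrane proteins had an unadjusted p under 0.05 by limma. Lamp1, a heavily glycosylated protein that lines the membrane, had signals of 42505, 44371 and 42320 in deleted pools, against 40397.5, 44373 and 38195 in control pools. The groups overlapped, and the log2 fold change was 0.074 (95% interval -0.16 to 0.31). Lamp2, needed for fusion with autophagosomes, had 27615, 30273 and 28198 in deleted pools, against 26507, 27087 and 27082 in control pools. Its groups did not overlap, at a small log2 difference of 0.093 (-0.13 to 0.31).

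Scarb2, the receptor that carries glucocerebrosidase to the lysosome, had 23141, 23159 and 20997 in deleted pools, against 20264, 23802 and 16722 in control pools. The groups overlapped, at log2 0.16 (-0.15 to 0.47). Mcoln1, a calcium channel of the membrane, stood at 0.046 (-0.33 to 0.42). A dimmer Scarb2 probe set gave 0.54, so its probe sets disagree on the size.

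Pump subunits of the membrane sector V0 had a median log2 fold change of 0.074 over 6 genes. Atp6v0d1, the subunit that joins both sectors, had signals of 15488, 17533 and 16639 in deleted pools, against 13838, 15106 and 11294 in control pools. By brightest probe sets it was the 1 pump gene with an unadjusted p under 0.05, at log2 0.31 ± 0.13 (SE). Its groups did not overlap, and the limma adjusted p was 0.38. Without control replicate 3, its lowest control, the log2 fold change was 0.19. Atp6v0a2, a subunit that targets the pump to the Golgi and endosomes, was the only member with every deleted pool below every control pool. It had 1303, 1267 and 1197 in deleted pools, against 1384, 1417 and 1457 in control pools. The difference was log2 -0.18 ± 0.14 (SE, limma adjusted p = 0.67), and dimmer probe sets gave -0.41 and -0.50. The other a subunit gene tested among the members, Atp6v0a1, had 4119.7, 3163 and 3544 in deleted pools, against 3402, 3567.5 and 2122 in control pools. Control replicate 3 lay far below the rest, the groups overlapped, and the log2 fold change was 0.28 with all pools, 0.043 without that pool and 0.18 without deleted replicate 1.

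The proteolipid gene Atp6v0b stood at 0.083, Atp6v0e at 0.065 and its paralogue Atp6v0e2 at -0.032, all with overlapping groups.

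The ATP-hydrolysing sector V1 had a median of 0.11 over 11 genes, none of them at an unadjusted p under 0.05 by its brightest probe set. Atp6v1d, a subunit of the rotating stalk, had signals of 11805, 10903.5 and 12474 in deleted pools, against 12749, 12304 and 14364 in control pools. It was lower by a log2 fold change of -0.16 ± 0.11 (SE), and deleted replicate 3 lay inside the control range. Atp6v1c1, which links the stator to the sector, had 13068, 11526.5 and 11069.8 in deleted pools, against 10599.9, 11311 and 9875 in control pools, and a log2 fold change of 0.16 ± 0.11 (SE). Its dimmer probe sets gave 0.10 and 0.30 (unadjusted p = 0.43 and 0.045 in the limma fit over every probe set).

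The catalytic subunit gene Atp6v1a stood at 0.15 (95% interval -0.12 to 0.42). A second Atp6v1a probe set of similar brightness gave 0.33 (unadjusted p = 0.032 in the limma fit over every probe set), so the size differs between them. Without control replicate 2 the gene stood at 0.40. Its partner Atp6v1b2 stood at 0.095 (-0.16 to 0.35). Atp6v1g1, a peripheral stalk subunit, had 40584, 43587 and 45928 in deleted pools, against 37244, 45462 and 36367 in control pools. Control replicate 2 lay among the deleted pools, and the log2 fold change was 0.13 (-0.14 to 0.41). A dimmer Atp6v1g1 probe set gave 0.41 (unadjusted p = 0.0125 in the limma fit over every probe set). Atp6v1h stood at 0.13, Atp6v1c2 at 0.11, Atp6v1e1 at 0.059 and Atp6v1f at -0.015. Atp6v1g2, a stalk isoform known from neurons, had 459, 314 and 285.5 in deleted pools, against 314, 195 and 259.6 in control pools, at log2 0.46 ± 0.33 (SE), or 0.27 without control replicate 2. Atp6v1e2, known from testis, averaged 313 in deleted pools and 407 in control pools, at log2 -0.34 ± 0.31 (SE), -0.59 without control replicate 1 and -0.15 without control replicate 2. Both lay near the filter on dim signals, at 271, and their groups overlapped.

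Promoters are shown because TFEB binds an E-box, CACGTG, in genes of this family, and because genes with the motif can be compared with genes that lack it. RefSeq promoter windows (GRCm38.p6, 250 bases before to 50 after a start) were found for 43 of the 50 members. CACGTG, which is its own reverse complement, was present for 14 of the 43 (32.6%), against 8.09% of 27025 genes with a window. The same E-box with GT before and AC after it was present for 0 of 43 (0.37% of genes). TCACGTGA, which contains CACGTG and was searched after these promoters had been read, was present for 7 (304 of the 27025 genes), and the sterol element TCACNCCAC, read on both strands, for 1 (1.44% of genes). By role, CACGTG was present for 8 of 23 enzymes and activators and for 4 of 14 pump genes.
The stretches below run from 120 bases before the annotated start to the base just before it, with CACGTG in capitals. They are Psap (chr10:60277508-60277627, plus strand), Ctsd (chr7:142387828-142387947, minus strand), Arsa (chr15:89477425-89477544, minus strand), Lamp1 (chr8:13159041-13159160, plus strand) and Atp6v0b (chr4:117887330-117887449, minus strand), each 5′ to 3′ on the gene's own strand.
Psap: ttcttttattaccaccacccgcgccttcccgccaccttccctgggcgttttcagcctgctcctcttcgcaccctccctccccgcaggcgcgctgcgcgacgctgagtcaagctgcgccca
Ctsd: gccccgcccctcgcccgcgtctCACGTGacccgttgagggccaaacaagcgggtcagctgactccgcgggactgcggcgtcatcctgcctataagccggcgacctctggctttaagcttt
Arsa: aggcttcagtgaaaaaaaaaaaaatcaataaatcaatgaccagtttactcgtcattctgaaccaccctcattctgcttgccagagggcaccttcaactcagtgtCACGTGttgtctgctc
Lamp1: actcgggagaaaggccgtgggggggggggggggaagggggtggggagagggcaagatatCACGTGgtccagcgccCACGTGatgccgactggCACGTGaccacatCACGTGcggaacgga
Atp6v0b: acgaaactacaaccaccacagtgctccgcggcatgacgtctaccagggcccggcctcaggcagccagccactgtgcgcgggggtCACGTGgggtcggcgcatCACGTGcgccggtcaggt

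Over members of all roles, those with the motif had no higher median difference than those without it. This order did not hold by role. Within the enzymes and activators, and within the pump genes, members with the motif had the higher median. None of these differences was tested. Lamp1 holds 4 copies in this stretch, at -61, -45, -28 and -15 from the start, and Atp6v0b holds 2, at -36 and -18, and their log2 fold changes were 0.074 and 0.083. Ctsd (log2 0.57) holds 1 at -98 and another at -245 outside the stretch shown, and Arsa (0.43) 1 at -16. Of the carriers whose promoters are not shown, Ctsa (0.59), Gla (0.57) and Mcoln1 (0.046) hold 2 copies each. Lgmn (0.41), Atp6v0d1 (0.31), Atp6v1a (0.15), Ctsl (0.14), Glb1 (0.13), Gaa (0.076) and Atp6v0e (0.065) hold 1 each. Neither window of Psap holds the motif, nor does that of Lipa or any of the 3 windows of Tfeb. Among the 14 tested members with the motif 6 were higher at an unadjusted p under 0.05, and the median log2 fold change was 0.14. Among 27 tested members without the motif 10 were higher and the median was 0.28. Of all genes 6.05% were higher at that level. A match here describes letters and is not a bound site.

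Other lysosomal genes were read from lists that hold no member. Of 30 further lysosomal hydrolases 25 were tested, and none passed by limma (0.625% of all genes higher, 0.0232% lower). At an unadjusted p under 0.05, 8 were higher (32%, against 6.05% of all genes) and 1 lower (6.02% of all genes were). The median log2 fold change was 0.27. Ctss, a cathepsin of antigen-presenting cells that also stands in the macrophage list, averaged 17862 ± 5172 in deleted pools and 9497 ± 873 in control pools (SD, n = 3 each), a log2 fold change of 0.88 and a limma adjusted p of 0.098. Dpp7, a dipeptidyl peptidase, had 2225 ± 96.7 in deleted pools and 1358 ± 217 in control pools (SD, n = 3 each), a log2 fold change of 0.72 and a limma adjusted p of 0.0997. Named outside the rule as the 1 lower gene, Dnase2a, the lysosomal DNase, stood at -0.55.

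Lysosomal membrane proteins and transporters outside the members showed none of 24 past the threshold by limma, and a median of 0.11. At an unadjusted p under 0.05, 4 were higher (16.7%, against 6.05% of all genes) and 1 lower (6.02% of all genes were). Atp6v0d2, the d subunit isoform known from osteoclasts and macrophages and no member here, had 3795, 3203 and 4031 in deleted pools, against 1351, 2162 and 1944 in control pools. It was 2.05-fold higher with no overlap (log2 1.036 ± 0.19 SE), and its limma adjusted p of 0.052 missed the threshold, while the ubiquitous isoform Atp6v0d1 stood at 0.31. Laptm5, a lysosomal protein of blood cells, stood at 0.76. Among genes that sort enzymes to lysosomes none of 19 passed by limma, and the median was 0.11. At an unadjusted p under 0.05, 2 were higher (10.5%, against 6.05% of all genes) and 1 lower (6.02% of all genes were). Gnptab, whose enzyme makes the mannose-6-phosphate tag of hydrolases, stood at 0.67 with 5985 ± 1160.2 in deleted pools and 3736 ± 278 in control pools (SD, n = 3 each), and Igf2r, a receptor of that tag, at -0.39.

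**Figure D3:**
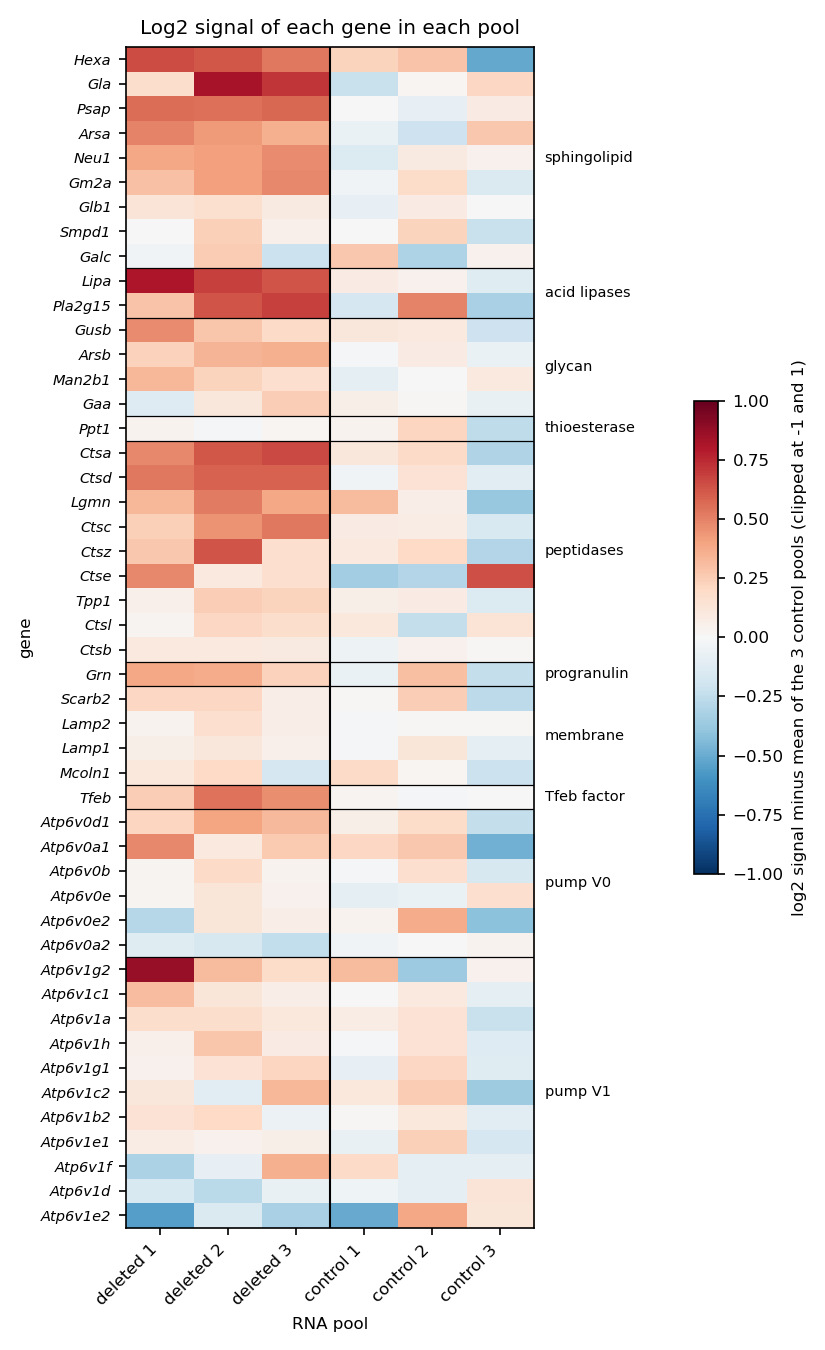
Log2 signal of each of the 48 tested genes (rows, grouped by role) in each pool (columns), minus the mean of the 3 control pools. Of 25 enzyme and activator rows 15 have every deleted pool above every control pool (60%, against 9.2% of all genes). The column of control replicate 3 is blue in most rows, where it was the lowest control for 30 of 48 genes.

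Single control pools bore on these values. Control replicate 3 was the lowest control for 30 of the 48 members, against 33.5% of all genes tested, and control replicates 1 and 2 were the lowest for 10 and 8. It was the lowest control for Hexa, Ctsa, Lgmn, Atp6v0d1 and Atp6v0a1, among others. Type II cell markers showed the same feature, with control replicate 3 the lowest control for 12 of 16. The other cell type lists had lower shares, with 5 of 23 macrophage, 1 of 12 lymphocyte and 0 of 3 neutrophil markers. For type I, mesenchymal, airway and endothelial markers that pool was the lowest control for 4 of 10, 4 of 12, 0 of 15 and 0 of 10. Without that pool the median over the members was 0.14, the pump median was 0.040 and 38 members lay above 0 (43 with all pools). Psap was still the 1 member past the threshold (limma adjusted p = 0.021), when 1.23% of all genes were called higher (0.625% with all pools). Without control replicate 2, Psap, Lipa, Ctsd and Ctsa were higher past the threshold, when 1.42% of all genes were called higher. Without any 1 of the deleted pools, or without control replicate 1, no member passed.

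Dimmer probe sets mostly pointed the same way. The 48 members had 96 probe sets past the filter, of which 48 were not the brightest of their gene and belonged to 32 genes. Of these 48, 37 had log2 fold changes above 0 (46.2% of all 27022 probe sets past the filter did) and 39 had the sign of the brightest probe set. None passed by limma over those 27022 (0.322% of all did), while 15 were higher and 1 was lower with an unadjusted p under 0.05, against 4.84% and 5.35% of all. In that wider fit the brightest Psap probe set had an adjusted p of 0.068.

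**Figure D4:**
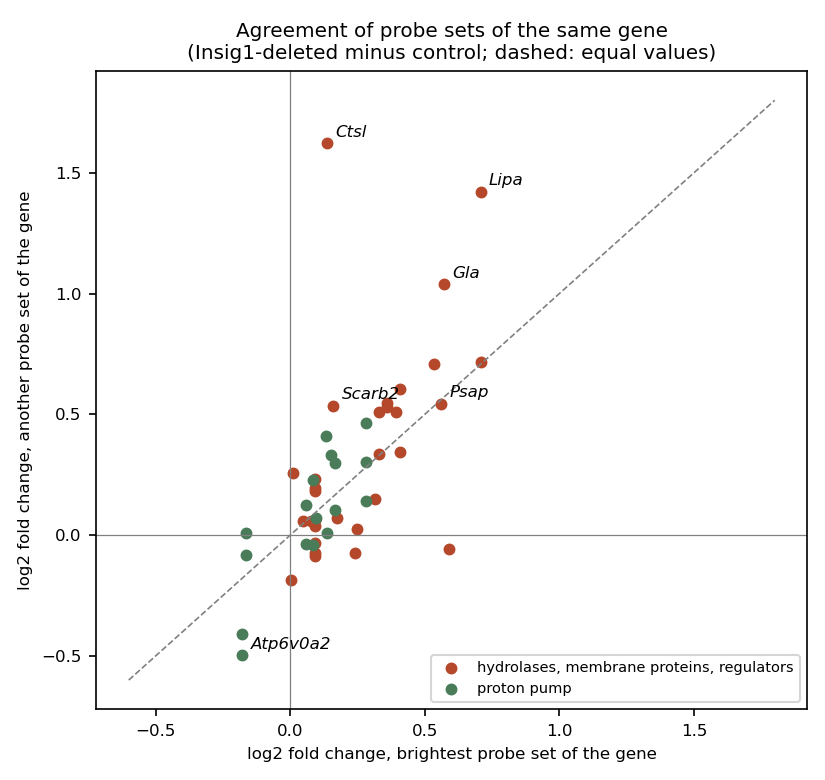
Log2 fold change (Insig1-deleted minus control) of each dimmer probe set past the filter (vertical axis) against that of the brightest probe set of the same gene (horizontal axis), 48 points, with the pump in green and other members in red. Points of Lipa, Gla and Ctsl lie above the dashed line of equality, and those of Atp6v0a2 lie below 0 on both axes.

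The remaining facts of the arrays were shared by all genes. Pearson correlations of log2 signal were 0.924 to 0.940 for pairs of pools of the same genotype and 0.927 to 0.938 for pairs of opposite genotype, and array medians differed by at most 0.17 on the log2 scale. The Insig1 probe set read 1482 ± 251.3 in deleted pools and 2862 ± 519.5 in control pools (SD, n = 3 each), a log2 fold change of -0.95 with a limma adjusted p of 0.068. The sources used here do not say whether it lies in the deleted part. The Insig2 probe set read 1980.5 ± 110 in deleted pools and 2249 ± 392 in control pools (SD, n = 3 each), although both groups were Insig2 -/- by label. What that signal measures was not tested. Of 15 airway markers 2 fell (Ccdc153 and Sox2, limma, against 0.0232% of all genes), and 5 were lower with an unadjusted p under 0.05 (6.02% of all genes were). All 15 lay below 0, while 49.1% of all genes lay above 0, and the median was -0.36. Lymphocyte markers had a median of 0.58 over 12 genes (Ccr7 1.27, Cd2 0.84), neutrophil markers 0.95 over 3 (S100a8 1.010, S100a9 0.95), type I markers 0.038 over 10 (Ager 0.61, Vegfa 0.29) and mesenchymal markers -0.086 over 12 (Fn1 0.48, Pdgfra -0.46), with none past the threshold by limma. At an unadjusted p under 0.05, 4 lymphocyte, 2 neutrophil and 1 mesenchymal marker were higher (33.3%, 66.7% and 8.33%, against 6.05% of all genes). Endothelial markers had a median of -0.050 over 10, where Car4, a carbonic anhydrase, rose (log2 0.89). Ctsh and Muc1 led the type II cell markers by p, at 0.52 and 0.54.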

How the data were processed

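Total RNA of isolated lung type II cells was biotin-labelled and hybridised to Affymetrix arrays, 1 pool per array, per the labels' protocols. The authors deposited probe set intensity values on a linear scale, made with MAS5 per the submitters' processing notes. As the values show, each array had the same trimmed mean, so shape differences between arrays remain. Here a floor of 1 was applied before log2. Of 45101 probe sets, 64 were controls, 34945 named 1 gene, 932 several and 9160 none. Controls and probe sets below the 40th percentile of mean log2 signal (8.08, a signal of 271) were left out, and 27022 remained. Names came from the platform annotation. Each gene was read from its brightest probe set naming it alone, which gave 12952 genes.

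The fit used lmFit and eBayes of limma (3.58.1, under R 4.3.3) with trend on. Tests were two-sided, p-values were adjusted by Benjamini-Hochberg over every gene tested, and the threshold was 0.05. Folds are deleted over control, and SDs are over 3 pools. An exact permutation test of 3 against 3 cannot go below 0.1. Since RNA was pooled, p-values rest on the spread between pools, and 6 arrays limit the precision. On simulated data with 12952 genes 4% of the genes simulated at a log2 change of 0.5 were called, 38% at 1 and 88% at 2. Alternatives changed the normalization, offset, filter, probe set rule, trend, array weights, replicate block and the pools used. Members, lists and tests were chosen with earlier results of these data known. Values are given in full per pool for members past the threshold, the 3 of each role with the smallest p, Tfeb, Lipa and the brightest of each role, and others were added after their values were seen. Other lists give up to 4 genes past the threshold, or 2 if none passed. Figures were drawn with matplotlib 3.10.9.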

Additional observations from a re-analysis of the deposited data

How the results depend on the processing

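The 1 member past the threshold became 0 with quantile normalization, no filter, no intensity trend or every probe set of the members fitted (chosen after seeing the data), 2 with a shift to a common median, the filter at the 60th percentile or the pool number as a replicate block, and 4 with array weights. Of all genes 0.649% were called in the main fit, 0.872% with the shift, 0.792% with that filter, 1.02% with the block and 2% with array weights. At an adjusted p under 0.1 the member count was 3, a level for which the share of all genes is not given here. At an unadjusted p under 0.05 it was 16, all higher, against 6.05% of all genes higher. Leaving out 1 pool gave 0 to 4. The count over all genes (84) was 29 without an intensity trend, 259 with array weights, 132 with the replicate block and 15 to 477 without 1 pool. The median over the members stayed between 0.13 and 0.24 in all 15 alternatives. Leaving out 1 pool moved the pump median between 0.040 (without control replicate 3) and 0.18, that of V0 between 0.023 and 0.16 and that of V1 between 0.040 and 0.21. The pump median moved beyond the spread between pools (0.17 with a shift to a common median and 0.18 without control replicate 2, against 0.095). So did the peptidase median (0.22 without control replicate 3, against 0.36). The glycan hydrolase median did too (0.16 with the mean over probe sets, 0.35 with the shift and 0.21 without deleted replicate 1, against 0.27). The shift raised the log2 fold changes of all genes alike, and the median over all genes tested became 0.074, against -0.005. For the other moves the cause was not tested. Ppt1, near 0, turned to -0.020 with array weights, -0.11 without control replicate 3 (0.12 without control replicate 2) and -0.002 without deleted replicate 1. Of the 24 members followed in full, the other 23 kept their sign in every alternative run, while Smpd1, Gaa, Galc, Mcoln1, Atp6v0e2, Atp6v1c2, Atp6v1e1 and Atp6v1f, all near 0, changed sign in at least 1. Psap missed the threshold with no filter (0.059), the mean over probe sets (0.053) and no intensity trend (0.17) as well.

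The pool numbers were not taken as pairs: deviations from group means correlated between same-numbered pools at 0.074, 0.040 and 0.146, and 5 of 6 pools correlated best with their own number. With the replicate block Psap (adjusted p = 0.045) and Ctsd (0.048) passed.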

Other observations

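Single dimmer probe sets stood far from the brightest of their gene. A second Ctsl probe set stood at log2 1.62 (limma, unadjusted p = 0.28), against 0.14 on the brightest, and its mean signals were 2065 in deleted pools and 2190.5 in control pools, so the linear means and the log values point opposite ways. A second Gla probe set stood at 1.040 and a Neu1 probe set below the filter at 1.29. A dimmer Ctsa probe set stood at -0.056, against 0.59 on the brightest.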
